A study of Mus musculus with 8 samples.

Results

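The genes described here encode the intracellular SMAD proteins and the SMURF ubiquitin ligases that bind them. They are Smad1, Smad2, Smad3, Smad4, Smad5, Smad6, Smad7, Smad9, Smurf1 and Smurf2, chosen by symbol from the 47706 genes of a count table, and all 10 were found and passed the filter on low counts that left 16736 genes. RNA was sequenced from primary mouse calvarial osteoblast cultures, bone-forming cells taken from the skull vault of newborn mice, after 7 days of differentiation and 24 hours with parathyroid hormone (PTH, 4 cultures) or vehicle (4 cultures). All cultures, the vehicle-treated ones included, were briefly starved of serum before treatment, and each label begins with Con, which the labels do not explain. The labels name adipogenic differentiation where the methods of the study name osteogenic medium. Nothing in the labels says whether the 4 cultures of a treatment came from separate preparations of cells, so p-values measure the spread between these samples, which may be technical.

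SMADs carry signals of the TGF-β family from receptors at the cell surface to the nucleus. Activated type I receptors phosphorylate receptor-regulated SMADs (R-SMADs): SMAD2 and SMAD3 downstream of TGF-β and activins, and SMAD1, SMAD5 and SMAD9 downstream of bone morphogenetic proteins (BMPs). R-SMADs join the common mediator SMAD4 and regulate transcription, the inhibitory SMAD6 and SMAD7 oppose them, and SMURF1 and SMURF2 attach ubiquitin to SMADs and receptors. In bone, BMP signals drive osteoblast differentiation, and TGF-β released from matrix regulates both progenitors and mature osteoblasts.

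Total counts lay between 41618108 and 46757836 in the vehicle-treated cultures and between 33605610 and 56090654 in the PTH-treated ones. Each of the 10 genes had at least 133 counts in every culture. Levels are given as CPM, the counts of a gene scaled to a library of fixed size after TMM normalization. The median of 10 osteoblast markers lay between 147 and 232 CPM in each culture, and 4 of the 10 fell with PTH. Among markers of other cells, the summed level of 10 macrophage genes was 1070 to 1739 CPM with vehicle and 1670 to 2136 CPM with PTH, and 2 of the 10 rose. These macrophage sums overlapped between treatments. The summed level of 6 chondrocyte genes was 423 to 482 CPM with vehicle and 494 to 624 CPM with PTH, without overlap. Of these 6 genes, 2 rose. By the same test, described below, 23.3% of all tested genes rose and 22.5% fell. The 8 adipocyte genes summed to at most 55.5 CPM and the 6 endothelial genes to at most 7.11 CPM, with Emcn at 0. What part these cells had in the results below was not tested, and in bulk RNA a change in the number of cells of a type and a change in RNA per cell cannot be told apart.

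PTH changed the level of nearly the whole set, in both directions. By the quasi-likelihood test of edgeR, with p-values adjusted after Benjamini and Hochberg over all tested genes, 5 of the 10 genes rose (Smad3, Smurf2, Smad1, Smad7 and Smad5) and 4 fell (Smad9, Smad2, Smurf1 and Smad4), while Smad6 did not pass the test. The call of Smad4 was lost in several other fits, given with its values. Among all tested genes, 23.3% rose and 22.5% fell, 45.8% in all. The cultures of the 2 treatments did not overlap for 8 of the 10 genes, 5 of them higher and 3 lower with PTH, against 43.0% of all tested genes (21.2% higher and 21.8% lower). The called changes reached 0.5 on the log2 scale for 4 genes, up for Smad3, Smurf2 and Smad1 and down for Smad9, against 14.9% of all tested genes up and 12.1% down. Close relatives moved apart: Smad3 rose and Smad2 fell, Smad1 and Smad5 rose and Smad9 fell, and Smurf2 rose and Smurf1 fell.

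**Figure D1:**
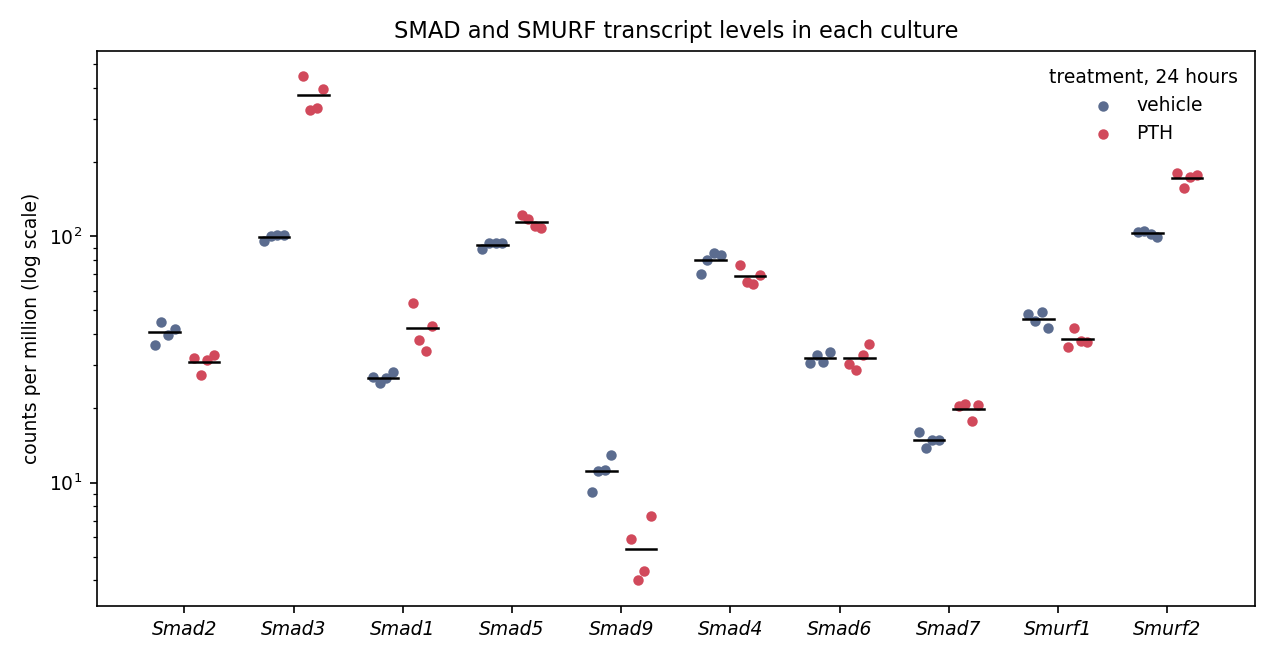
Level of each of the 10 genes in CPM (log axis) in the 4 vehicle-treated and 4 PTH-treated cultures, 1 point per culture, with black lines at the means. Smad3 rises from at most 101 to at least 326 CPM, Smad9 falls below its vehicle range, and the points of Smad6 and of Smad4 overlap between treatments.

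For Smad3, Smurf2 and Smad9, the genes with the largest changes, the promoter sequences are shown first. These are the 250 bases before the RefSeq gene start in build GRCm38.p6, written 5′ to 3′ on the strand of the gene. Capitals mark GGCGCC, the GC-rich element bound by BMP-branch SMADs. Smad3 lies on chr9:63757995-63758244 (minus strand), Smurf2 on chr11:106920716-106920965 (minus strand) and Smad9 on chr3:54755332-54755581 (plus strand).
Smad3: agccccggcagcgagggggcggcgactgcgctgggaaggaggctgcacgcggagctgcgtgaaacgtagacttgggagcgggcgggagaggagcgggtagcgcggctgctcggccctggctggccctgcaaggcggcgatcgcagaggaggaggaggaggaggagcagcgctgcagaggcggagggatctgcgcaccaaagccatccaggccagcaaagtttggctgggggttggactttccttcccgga
Smurf2: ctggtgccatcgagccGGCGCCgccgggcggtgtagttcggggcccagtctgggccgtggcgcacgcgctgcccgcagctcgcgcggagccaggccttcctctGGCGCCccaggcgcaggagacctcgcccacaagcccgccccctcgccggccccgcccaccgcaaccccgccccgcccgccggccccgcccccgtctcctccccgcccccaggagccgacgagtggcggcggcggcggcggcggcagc
Smad9: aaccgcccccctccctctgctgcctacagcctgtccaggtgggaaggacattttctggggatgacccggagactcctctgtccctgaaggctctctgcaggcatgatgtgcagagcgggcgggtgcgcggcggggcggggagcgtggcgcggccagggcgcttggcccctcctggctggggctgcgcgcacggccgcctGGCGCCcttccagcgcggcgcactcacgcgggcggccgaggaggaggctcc

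Promoter windows matched 7 of the 10 genes, all but Smad2, Smad4 and Smad7, and gave 9 windows because Smad5 has 3 starts. Windows 1 and 2 of Smad5 overlap (chr13:56702760-56703009 and chr13:56702802-56703051), so the 9 are not all separate sequences. Window 3 of Smad5 (chr13:56703418-56703667) and the GGCGCC match in its window 2 lie after the GENCODE start of Smad5 at 56703010. On either strand, GGCGCC was in 3 of the 9 windows, those of Smurf2 (twin matches, starting 234 and 147 bases before the gene start), Smad9 (51 bases before it) and 1 window of Smad5. It was in 9.59% of the 32851 promoter windows of the same length in the table. G and C made up 82%, 73.2% and 66.4% of the matching windows of Smurf2, Smad9 and Smad5, against a median of 52.4% over all windows. GGCGCC holds only these letters, so the 2 shares do not compare windows of like base composition. TGACG is the core of the element bound by CREB, a factor activated by cAMP, a messenger of the PTH receptor. It was in the window of Smad1, 16 bases before the RefSeq start, where GENCODE has an exon of a longer Smad1 transcript. TGACG was also in window 3 of Smad5, and in 17.8% of all windows. The full palindrome TGACGTCA, which contains TGACG, was in none of the 9 and in 1.55% of all windows. The SMAD-binding palindrome GTCTAGAC was in none of the 9 and in 0.167% of all, and CAGAC, the core of the CAGA box bound by SMAD3, was in 3 of the 9 (Smurf1, Smurf2 and Smad5) and in 42.2% of all. None of these motifs was found in the 250 bases before Smad3 or Smad6. A match is a description of the letters and not a binding site.

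Smad3, which encodes the R-SMAD of TGF-β and activin signals that binds DNA directly, lies on chromosome 9 from 63646767 to 63757994 (GRCm38). It had 95.7, 100.4, 101 and 101 CPM in the vehicle-treated cultures and 448, 326, 333 and 396 CPM in the PTH-treated ones. The lowest PTH-treated culture was far above the highest vehicle-treated one (exact permutation test, two-sided p = 0.0286, the smallest that 4 samples against 4 allow). The log2 fold change was 1.92 (standard error 0.0998, edgeR adjusted p = 1.81e-08), a 3.77-fold rise with a 95% interval of 3.25 to 4.39. As a share, 3.17% of all tested genes had as high a log2 fold change. PTH replicate 1, the deepest library, had the highest value, and without it the log2 fold change was 1.82.

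Smad2, which encodes the second R-SMAD of this branch, moved the other way. It lies on chromosome 18 from 76241580 to 76310963 and had 36.3, 44.8, 39.8 and 42.1 CPM with vehicle against 32.2, 27.4, 31.4 and 32.9 CPM with PTH. All PTH-treated cultures were below all vehicle-treated ones, although by little at the nearest point. Smad2 fell by 0.40 on the log2 scale (standard error 0.0845, edgeR adjusted p = 0.00226), to 0.760 of its vehicle level with a 95% interval of 0.669 to 0.864.

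In the BMP branch, Smad1 and Smad5 rose and Smad9 fell. Smad1, on chromosome 8 from 79338395 to 79399518, encodes an R-SMAD of BMP receptors and had 26.7, 25.3, 26.6 and 28.1 CPM with vehicle. With PTH it had 53.5, 38.0, 34.3 and 43.3 CPM. This was a 1.59-fold rise with a 95% interval of 1.33 to 1.90 (log2 fold change 0.67, standard error 0.118, edgeR adjusted p = 6.50e-04). The PTH-treated cultures of Smad1 spread more widely than the vehicle-treated ones (SD 8.35 against 1.17 CPM), with PTH replicate 1 again the highest, and without that replicate the log2 fold change was 0.53.

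Smad5, on chromosome 13 from 56703010 to 56742377, was the most abundant BMP-branch gene and its product shares the receptors of SMAD1. It had 88.8, 93.5, 94.2 and 93.7 CPM with vehicle and 122, 117, 110.2 and 108 CPM with PTH. The rise was small but without overlap (log2 fold change 0.30, standard error 0.0612, edgeR adjusted p = 0.00151), a 1.24-fold change with a 95% interval of 1.13 to 1.36.

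Smad9 (also called Smad8), on chromosome 3 from 54755582 to 54801257, encodes the R-SMAD of the BMP branch that activates transcription least. It had 9.13, 11.1, 11.2 and 12.98 CPM with vehicle and 5.89, 4.002, 4.39 and 7.30 CPM with PTH. All 4 PTH-treated cultures were below the lowest vehicle-treated one. Smad9 was the least abundant of the 10 genes and had the largest fall, a log2 fold change of -1.04 (standard error 0.184, edgeR adjusted p = 6.40e-04), to 0.487 of its vehicle level with a 95% interval of 0.369 to 0.643. Among all tested genes, called or not, 4.11% had a log2 fold change as low or lower.

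Smad4 encodes the partner that both branches share and lies on chromosome 18 from 73639009 to 73703780. Its level was 70.6, 80.3, 85.7 and 83.8 CPM with vehicle and 76.3, 65.3, 64.0 and 69.9 CPM with PTH, so that PTH replicate 1 lay inside the vehicle range (exact permutation test, two-sided p = 0.0571). The log2 fold change of -0.22 (standard error 0.0799) passed the threshold with edgeR (adjusted p = 0.0424) but not with DESeq2 (adjusted p = 0.0574), which called 37.5% of the 21051 genes it tested and the other 8 called genes of the set. Of the 8 fits that each left out 1 culture, 2 called Smad4, and the adjusted p over these fits lay between 0.0125 and 0.124. The other 8 called genes were called in each of these 8 fits.

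The inhibitory SMADs did not move alike. Smad6, on chromosome 9 from 63953076 to 64022059, encodes an inhibitor directed mainly at the BMP branch and had 30.6, 33.0, 30.8 and 34.0 CPM with vehicle and 30.2, 28.6, 32.8 and 36.4 CPM with PTH. The treatments overlapped, and the log2 fold change was -0.0021 (95% interval -0.19 to 0.18, edgeR adjusted p = 0.986), which leaves room for a fold change of between 0.879 and 1.13. Smad7, on chromosome 18 from 75367529 to 75395935, encodes an inhibitor of both branches that brings SMURF proteins to activated receptors. Its level was 16.1, 13.8, 14.8 and 14.9 CPM with vehicle and 20.5, 20.9, 17.8 and 20.6 CPM with PTH, without overlap. Smad7 rose 1.34-fold (log2 fold change 0.42, standard error 0.0858, edgeR adjusted p = 0.00166).

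Of the ubiquitin ligases, Smurf2 rose and Smurf1 fell. Smurf2, on chromosome 11 from 106820066 to 106920715, had 104, 105, 102 and 99.5 CPM with vehicle and 181, 158, 174 and 177 CPM with PTH. Its rise was 1.68-fold (95% interval 1.53 to 1.85), with a log2 fold change of 0.75 (standard error 0.0627, edgeR adjusted p = 1.30e-06), the second lowest adjusted p of the set. Smurf1, on chromosome 5 from 144876495 to 144965847, is known for marking SMAD1, SMAD5 and the osteoblast factor RUNX2 for degradation. It had 48.1, 45.4, 49.1 and 42.6 CPM with vehicle and 35.4, 42.5, 37.7 and 37.3 CPM with PTH, and the highest PTH-treated culture lay just under the lowest vehicle-treated one. Smurf1 had a log2 fold change of -0.28 (standard error 0.0759, edgeR adjusted p = 0.0101), to 0.825 of its vehicle level. No transcript of another gene shared 150 bases at 95% identity with any of the 10 genes. The assembled loci of Smad5 and Smurf2 also hold a short RNA gene each, with at most 12 counts.

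**Figure D2:**
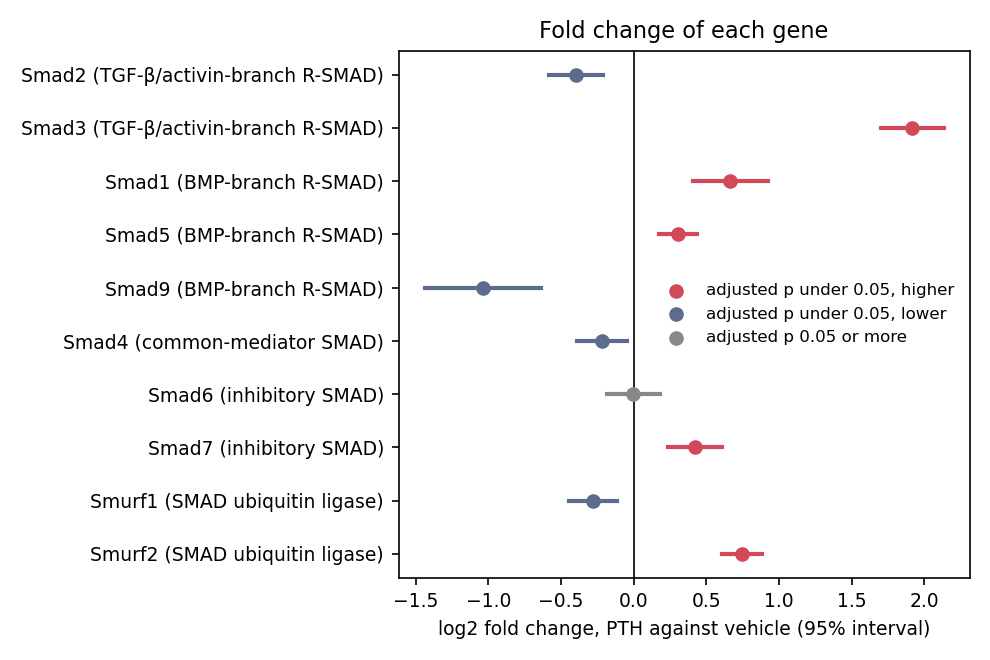
Log2 fold change of PTH against vehicle for each gene with its 95% interval from edgeR, ordered by the role of the protein. The interval of Smad3 (around 1.92) stands clear of all others, those of Smad2, Smad9, Smad4 and Smurf1 lie below 0, and that of Smad6 spans 0.

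Levels between genes were compared as CPM per kilobase of annotated exon. With vehicle, Smad4 had the highest level (21.6 ± 1.82 CPM per kilobase, mean ± SD, n = 4), followed by Smad3 (17.96 ± 0.469), Smurf2 (16.7 ± 0.416), Smad5 (12.5 ± 0.340), Smad6 (10.0063 ± 0.520), Smurf1 (7.31 ± 0.463), Smad2 (4.64 ± 0.406), Smad1 (4.26 ± 0.187), Smad7 (3.29 ± 0.213) and Smad9 (2.07 ± 0.294). The ranges of Smad2 and Smad1 overlapped, and those of all other neighbours in this order were separate. With PTH, Smad3 came first with 67.8 ± 10.4 CPM per kilobase, ahead of Smurf2 (28.0 ± 1.65) and Smad4 (18.6 ± 1.499). Smad5, Smad6, Smad1, Smurf1, Smad7, Smad2 and Smad9 followed with between 15.4 and 1.005 CPM per kilobase, of which Smad1 (6.75 ± 1.33) and Smurf1 (6.03 ± 0.472) overlapped. Parts of this order depend on the lengths used. With the length of the longest transcript in place of all exons, Smad1 stood clear of Smad2 with vehicle (7.07 against 5.04 CPM per kilobase), and the ranges of Smad3 and Smurf2 overlapped (18.8 to 19.9 CPM per kilobase for both). With PTH, Smad1 then came just above Smad6 (11.2 against 10.8 CPM per kilobase, with overlap) and was separate from Smurf1.

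Smad3 made up a larger share of all SMAD transcripts with PTH than with vehicle. Per kilobase, the 8 SMAD genes summed to between 71.4 and 79.1 CPM with vehicle and between 116 and 145 CPM with PTH. Without Smad3, the sum was between 54.2 and 60.8 CPM per kilobase with vehicle and between 56.2 and 64.3 with PTH, so the ranges of the remaining 7 genes overlapped. Smad3 made up 23.1% to 24.2% of SMAD transcripts with vehicle and 50.8% to 55.7% with PTH. The share of Smad4 was between 26.6% and 29.7% with vehicle and between 14.2% and 15.2% with PTH, and that of the inhibitory pair was between 16.6% and 18.3% with vehicle and between 9.63% and 12.2% with PTH. The BMP-branch genes together had 24.3% to 25.1% with vehicle and 17.2% to 19.5% with PTH. Shares add up to a whole, so the rise of Smad3 lowers the shares of the others and a lower share is not a lower level. In CPM, Smad1 and Smad5 of the BMP branch rose and Smad9 fell. Of the inhibitory pair, Smad7 rose and Smad6 did not pass the test. The ratio of TGF-β-branch (Smad2 and Smad3) to BMP-branch R-SMAD transcripts was 1.18 to 1.24 with vehicle and 2.74 to 3.30 with PTH. These shares are sums over the genes described above and were not tested, and their size depends on the exon lengths used.

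**Figure D3:**
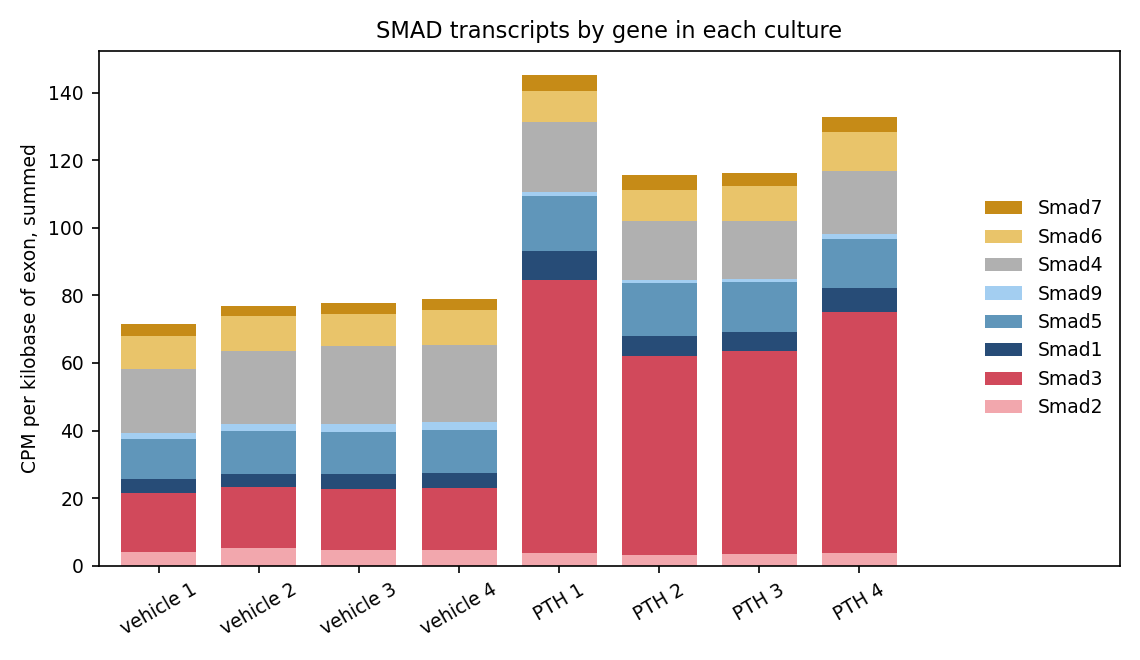
Summed level of the 8 SMAD genes in CPM per kilobase of exon for each of the 8 cultures, with bars starting at 0 and colors for the genes. The PTH-treated bars reach 116 to 145 against at most 79.1 with vehicle, and the red Smad3 segment holds most of the difference.

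Ratios between related genes within a culture do not depend on how the libraries were scaled. Their size depends on the exon lengths used, but their fold change with PTH does not. They are given for 6 pairs picked with the fold changes known, as a description and with no test, since in most pairs the genes had already separated in opposite directions. The ratio of Smad3 to Smad2 per kilobase was 4.17, 3.55, 4.01 and 3.81 with vehicle and 22.1, 18.9, 16.8 and 19.1 with PTH, a 4.93-fold change. The ratio of Smurf2 to Smurf1 was between 2.14 and 2.40 with vehicle and between 3.82 and 5.24 with PTH (2.03-fold). The ratio of Smad1 to Smad9 changed 3.29-fold and that of Smad5 to Smad9 changed 2.60-fold. Smaller changes were those of Smad7 to Smad6 (1.34-fold) and of Smad1 to Smad5 (1.27-fold), where the highest vehicle-treated and lowest PTH-treated cultures were 0.373 and 0.385 for the first pair and 0.356 and 0.369 for the second.

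**Figure D4:**
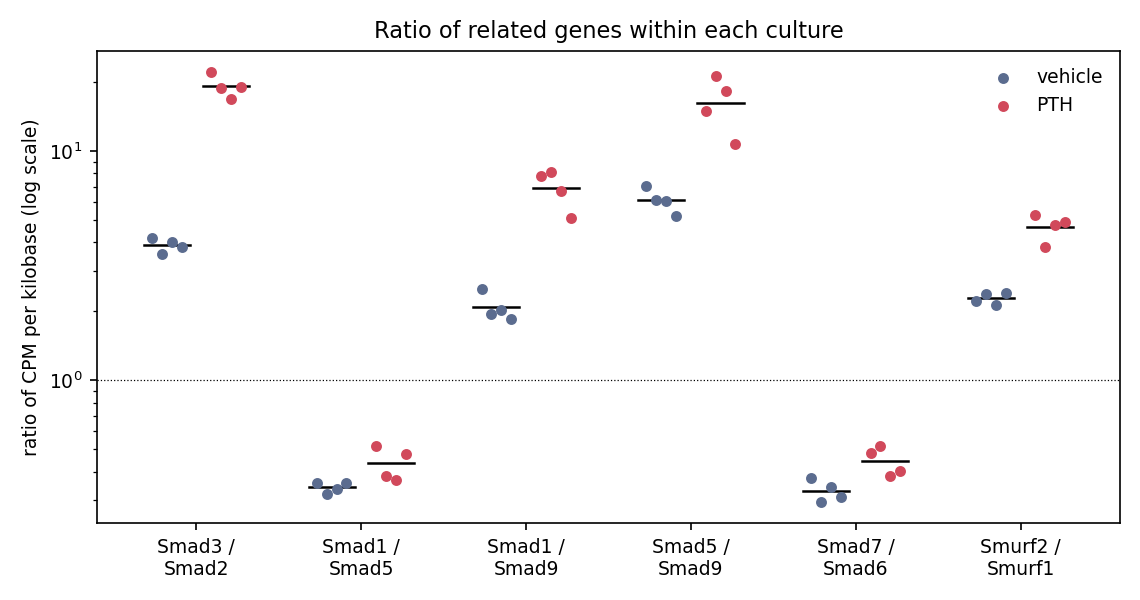
Ratio of CPM per kilobase for 6 pairs of related genes (log axis) in each vehicle-treated and PTH-treated culture, with lines at the means and a dotted line at equal levels. In each pair the 4 PTH-treated cultures lie above the 4 vehicle-treated ones, with the widest gap for Smad3 to Smad2.

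Genes that SMADs are known to regulate, and genes that act with or on SMADs, were taken from 6 lists, of which the counts are read against the 23.3% of all tested genes that rose and the 22.5% that fell. Of 16 BMP-branch targets, all tested, 10 rose and 5 fell, with a median log2 fold change of 0.37 against -0.000814 over all tested genes. Id1 and Id3 encode inhibitors of helix-loop-helix factors and are typical targets of SMAD1 and SMAD5, yet they moved apart. Id1 fell from 24.9 ± 2.74 to 9.604 ± 1.57 CPM (log2 fold change -1.37, edgeR adjusted p = 2.74e-06), and Id3 rose from 131 ± 2.97 to 248 ± 9.31 CPM (0.92, adjusted p = 1.14e-07). The other large rises were those of the BMP antagonist Grem1 (log2 fold change 2.07) and the Notch and BMP target Hey1 (1.30). The other large falls were those of Dlx3 (-3.37) and Sp7 (-1.78), transcription factors of osteoblast differentiation.

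Of 18 TGF-β-branch targets, all tested, 10 rose and 4 fell, with a median log2 fold change of 0.45. Bhlhe40 (log2 fold change 3.26), a transcriptional repressor, and Snai1 (2.17), a repressor of epithelial genes, had the largest rises. Snai1 went from 64.2 ± 3.13 to 289 ± 36.7 CPM (edgeR adjusted p = 2.74e-09). The largest falls were those of Snai2 (log2 fold change -2.45), the relative of Snai1, Ctgf (-1.80), a matricellular protein gene, and Tgfb1i1 (-0.97), which encodes the adaptor Hic-5. Ctgf went from 132 ± 7.61 to 37.9 ± 4.99 CPM (adjusted p = 1.64e-08).

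Of 16 SMAD partners and co-repressors, 15 were tested, 4 rose and 7 fell, with a median log2 fold change of -0.13. Skil, which encodes the SMAD co-repressor SnoN and is also in the TGF-β target list, rose from 35.97 ± 2.08 to 75.1 ± 6.50 CPM (log2 fold change 1.06, edgeR adjusted p = 3.32e-07). Hdac4, which encodes a histone deacetylase, rose further (log2 fold change 1.84). The co-repressor gene Tgif1, which the TGF-β target list also holds, rose little (0.27) with overlap between treatments. Tgif2 (log2 fold change -1.37), the zinc finger factor gene Zfp521 (-0.90) and Sin3a (-0.79), which encodes a co-repressor scaffold, had the largest falls.

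Of 24 genes for SMAD anchors, ubiquitin ligases, deubiquitinases and phosphatases, all tested, 4 rose and 9 fell, with a median log2 fold change of -0.14. The rises were led by Lemd3 (log2 fold change 1.13), which encodes the inner nuclear membrane protein MAN1 that binds R-SMADs, Pmepa1 (1.09), a TGF-β-induced inhibitor of R-SMAD activation, and Usp9x (0.78), a deubiquitinase of SMAD4. Pmepa1 is counted in the TGF-β target list as well. Lemd3 went from 19.3 ± 0.479 to 42.3 ± 4.51 CPM (edgeR adjusted p = 3.85e-07). The falls were led by the phosphatase genes Pdp1 (log2 fold change -0.81) and Ctdsp2 (-0.63) and by the deubiquitinase gene Usp15 (-0.46).

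Upstream of the SMADs, 4 of 13 receptor genes rose and 5 fell, with a median log2 fold change of -0.06. Acvr1b (log2 fold change 1.26) and Tgfbr1 (0.81), the type I receptors that phosphorylate SMAD2 and SMAD3, and the co-receptor Tgfbr3 (0.29) rose. Acvr2a, a type II receptor for activins and BMPs, fell from 88.4 ± 2.95 to 33.6 ± 0.502 CPM (log2 fold change -1.40, edgeR adjusted p = 2.02e-09). The type I receptors Acvrl1 (log2 fold change -0.52) and Acvr1 (-0.51), which phosphorylate SMAD1 and SMAD5, fell less. Bmpr1a fell nearly as far as these (log2 fold change -0.49), from 194 to 138 CPM, and Bmpr1b did not pass the test. Of 12 ligand genes, 6 rose and 3 fell, with a median log2 fold change of 0.24. Bmp7 (log2 fold change 1.62), the activin subunit gene Inhba (1.001) and Bmp6 (0.76) had the largest rises among those with at least 1 CPM, and Bmp4 (-2.54), Bmp2 (-1.19) and Gdf6 (-0.56) had the largest falls. Gdf6 had between 3.12 and 5.199 CPM with vehicle and between 2.16 and 3.46 CPM with PTH, with overlap (edgeR adjusted p = 0.0445). Of the ligand genes, 2 to 4 fell in the fits that each left out 1 culture, and 2 fell with an offset for transcript length.

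**Figure D5:**
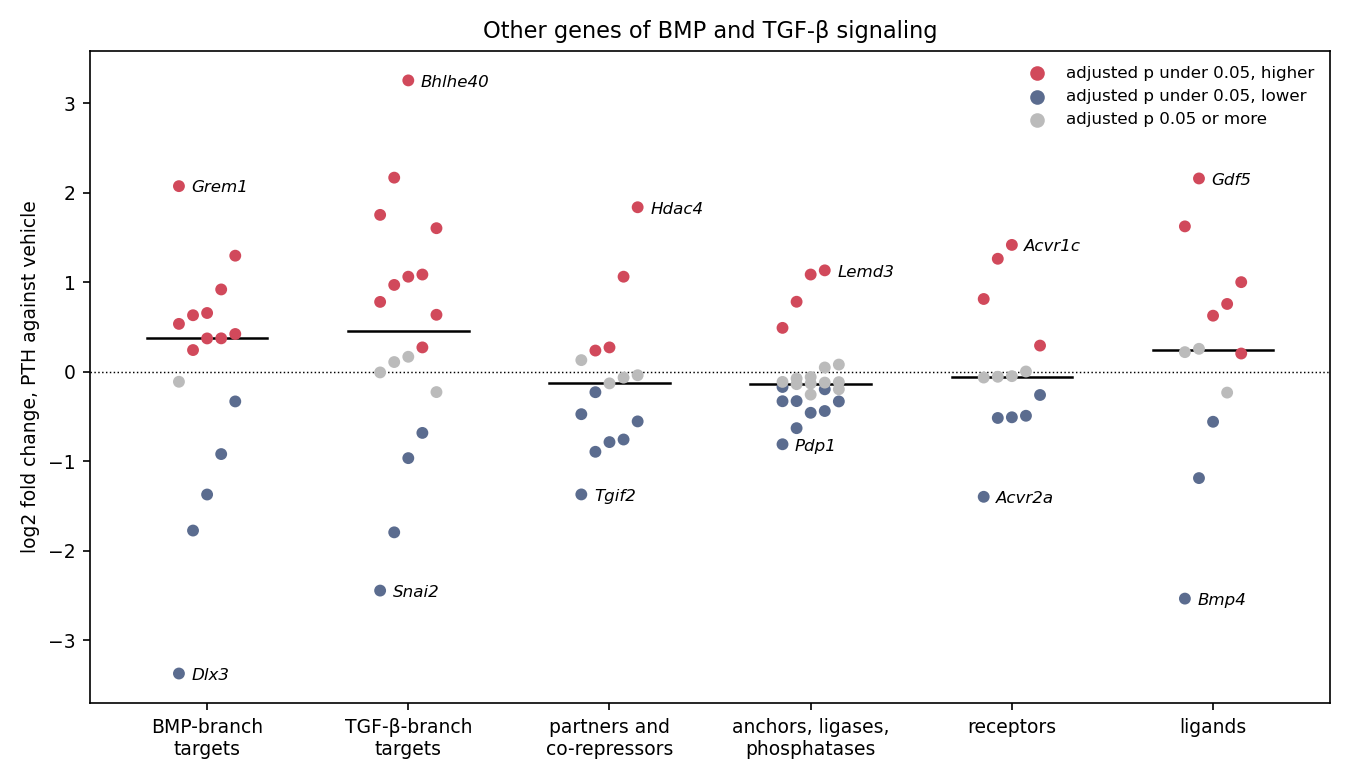
Log2 fold change of PTH against vehicle for each tested gene of 6 lists, with black lines at the list medians and color for the edgeR call. Each list has genes on both sides of 0, from Dlx3 (-3.37) to Bhlhe40 (3.26), and the medians lie between -0.14 and 0.45.

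Among the 14047 other tested genes whose mean reached 1 CPM, Ppme1, Zbtb38 and Nfe2l2 had the levels across the 8 cultures most like those of Smad3 (Pearson's r of log2 CPM of at least 0.999). Nfe2l2, which encodes the oxidative stress factor NRF2, rose from 69.9 to 258 CPM. Those most like Smad9 were Ralgps2, Cdh2 and Chst13 (r of 0.995, 0.990 and 0.989), and Cdh2, which encodes N-cadherin, fell from 195 to 139 CPM. Likeness here rests mainly on the treatment that the cultures share, and 1114 genes had an r over 0.95 with Smad3 and 190 with Smad9.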

How the data were processed

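Libraries were made from poly(A)-selected RNA. The authors used HISAT2 for alignment of read pairs to GRCm38 and StringTie2 for assembly, and deposited whole-number counts per gene, which a companion script of StringTie2 estimates from transcript coverage without scaling between samples. The annotation version, the strand setting and the read length given to that script are not given in the sources used here, and a wrong read length would scale all counts alike. Where several entries carried a symbol, the one with the highest mean count was used.

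PTH was compared with vehicle over all genes by edgeR 4.0.16 in R 4.3.3 (TMM normalization, filterByExpr with a minimum count of 10 and total of 15, two-sided quasi-likelihood F-test), at a Benjamini-Hochberg adjusted p under 0.05. Intervals are 95% intervals of that fit. The authors used DESeq2, and DESeq2 1.42.0 served as an alternative. Both were also run on simulated data in which far fewer genes changed than were called here, and the outcome is not given. For single genes, exact permutation tests used log2(CPM + 0.1), and the 70 assignments allow a smallest two-sided p of 0.0286. Total counts and the lowest count of the genes are given with the results. Positions and exon lengths are from GENCODE M21. Plots and tables were made in Python 3.11.15. From each list the up to 3 largest called changes each way with a mean of at least 1 CPM were named, except 1 gene that is not reported here. For the member with the largest rise and the one with the largest fall, so were the 3 genes of highest correlation. The genes and lists were chosen with earlier results of these data known.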

Additional observations from a re-analysis of the deposited data

Results flagged for a closer look

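In 3 of the 20 groups of 4 cultures (10 genes in each treatment), 1 culture stood apart from the other 3 by Dixon's criterion. Chance flags about 1 in 20 groups. The groups come from the same 8 cultures and are not independent, so no excess over chance can be read from this. Vehicle replicate 1 was the lowest for Smad3 (95.7 CPM, where the others had between 100.4 and 101) and for Smad5 (88.8 CPM, where the others had between 93.5 and 94.2). PTH replicate 3 was the lowest for Smad7 (17.8 CPM, where the others had between 20.5 and 20.9). In each case the values lay on the same side of the other treatment as the rest of their group.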

How the results depend on the processing

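The alternatives tried were DESeq2, edgeR with the size factors of DESeq2 or without the filter on low counts, counts halved or summed by symbol, a block for the sample number, the omission of each culture in turn, a minimum log2 fold change of 0.5, a pseudocount of 0.5 CPM and, added after the data were seen, an offset for transcript length. 8 of the 9 called genes kept direction and call in each edgeR and DESeq2 fit, and only the minimum fold change removed Smad2, Smad5, Smad7 and Smurf1. Smad4 did not pass with DESeq2, with its size factors, without the filter, with the block or with the length offset, and its log2 fold change over these fits lay between -0.25 and -0.14 (adjusted p up to 0.161). Under the minimum log2 fold change of 0.5, 3 SMAD and SMURF genes rose and 1 fell, 6 BMP-branch targets and 2 partners rose, and 2 genes of the anchor, ligase and phosphatase list and 3 receptors fell. Those counts differed from the main ones by over 1.5 times, and no other count did. Smaller shifts occurred in the fits that each left out 1 culture. There, as few as 8 BMP-branch targets rose, and as few as 7 genes of the anchor, ligase and phosphatase list and 4 receptors fell.

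Samples of the same number did not deviate together (correlations across genes of -0.041 to 0.027), so the numbers were not taken to pair cultures. With that block, Smad4 was the only called gene of the set to lose its call. Smad9, with 133 to 644 counts per culture, was the gene most limited by depth. Levels per kilobase moved by less than 1 SD with the size factors of DESeq2. With longest-transcript lengths most moved further, which follows from the shorter lengths.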
